A study of Homo sapiens with 6 samples.

Results

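The genes described here encode the core protein machinery of microRNA and siRNA silencing: the 4 Argonautes AGO1 to AGO4, the RNases DROSHA and DICER1, the DROSHA partner DGCR8, and the adaptors TNRC6A, TNRC6B and TNRC6C. They were chosen by symbol from the deposited gene table, and these 10 genes of 29538 all passed the filter on low counts that left 16412 genes for testing. Expression was measured in MDA-MB-231, an established line of invasive, mesenchymal human breast cancer cells, of which 3 cultures received a negative-control siRNA (siNC) and 3 the siRNA SI-BYSL-Homo-838 (siBYSL), directed at BYSL, a gene needed to mature the small ribosomal subunit. Both groups were given 160 pmol of siRNA per well with 4 µL of the lipid reagent RNAiMAX, the medium was changed after 6 h, and RNA was taken at 48 h. Both arms therefore carried a transfected duplex, untransfected cells were not analysed here, and the knockdown rests on 1 siRNA in 1 cell line. The labels call the 3 cultures of a group biological replicates.

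MicroRNAs begin as hairpins in long transcripts, which DROSHA and DGCR8 cut in the nucleus. DICER1 trims the exported hairpin to a short duplex, and an Argonaute keeps 1 strand as the guide that pairs with target RNAs, mostly through its seed, bases 2 to 8. TNRC6 proteins bind the Argonaute and recruit deadenylases that shorten the target's poly(A) tail. A synthetic siRNA such as the one used here enters at the Argonaute step. AGO2 is the Argonaute known for slicing a fully paired target, and its guide strand can also lower transcripts that pair with the seed alone.

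Libraries held 27754883 to 32088817 counts, and 23331 to 24394 genes had at least 1 count. The targeted gene BYSL averaged 99.9 ± 4.9 CPM (SD, n = 3) in siNC against 16.3 ± 0.94 CPM (SD, n = 3) in siBYSL, with every library on the side of its label. CPM are counts brought to a common library size with TMM factors. Of 7 mesenchymal markers of the line, 6 were above 1 CPM, with a summed level of 4947 to 5018 CPM in siNC and 4182 to 4267 CPM in siBYSL, and of 8 luminal and epithelial markers ESR1, PGR and FOXA1 were under 1 CPM while the other 5 were above it. SPARC, on the mesenchymal list, lay between 0.28 and 1.04 CPM. The 8 luminal and epithelial markers summed to 1273 to 1358 CPM in siNC and 1272 to 1558 in siBYSL, nearly all KRT8 and KRT18. Under that sum CDH1 lay at 4.37 to 4.57 CPM in siNC and 7.92 to 10.04 in siBYSL, and EPCAM at 13.8 to 15.02 and 20.7 to 20.9, without overlap of the groups. The groups overlapped for GATA3 (12.2 to 14.2 and 12.7 to 15.1 CPM), KRT8 and KRT18. The mesenchymal markers were mixed too. FOSL1, CAV1, AXL and VIM lay lower in siBYSL without overlap. CD44 lay higher without overlap, at 773 to 789 CPM in siNC and 855 to 917 in siBYSL. ZEB1 overlapped (36.4 to 39.2 and 38.3 to 45.7 CPM). Markers of fibroblasts summed to 10.6 to 12.2 CPM in siNC and 12.3 to 13.6 in siBYSL, of endothelium to 9.48 to 10.6 and 10.9 to 12.2, and of leukocytes to 10.5 to 12.3 and 11.3 to 15.2. The endothelial CDH5 was at or near 0. Their part in the results was not tested. In these bulk libraries fewer cells of a type and less RNA per cell cannot be told apart. Library siBYSL 3 was the farthest from the siNC mean of the siBYSL libraries for 5 of the 10 genes, and values without it are given where they matter.

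The strands of the BYSL siRNA are shown because they are the small RNAs that were transfected into the siBYSL cultures; loading of either strand was not measured. Capitals mark the seed, and the strands are written 5′ to 3′ as the labels give them.
Antisense (guide) strand: uAUUCAGCaacgucaucuctt
Sense (passenger) strand: gAGAUGACguugcugaauatt
The guide seed pairs with the heptamer GCTGAAT and the passenger seed with GTCATCT. The longest annotated 3′ UTR held the guide heptamer in 11.9% and the passenger heptamer in 12.1% of the 13072 tested genes that have one. Both strands can meet the machinery's own transcripts: 3 of the 10 genes held a guide heptamer, 2 held a passenger heptamer and 5 held neither. The sites of the guide are shown with the bases around them, in capitals where they pair with the seed, on GRCh38 and read on the plus strand except for DICER1.
DICER1, chr14:95090036-95090042, minus strand: gtagttgataaGCTGAATagaaagataag
AGO3, first site, chr1:36069643-36069649: ccagcacacagGCTGAATttttctttata
AGO3, second site, chr1:36071920-36071926: aaacaccaaatGCTGAATcctatcactgt
TNRC6B, chr22:40327324-40327330: aaaggcagtggGCTGAATttaaaataaat
The DICER1 site began 456 bases after the stop codon, in exon 29, the last, and was the only one followed by an A, which makes the octamer GCTGAATA. That octamer was present in 3.15% of the 13072 genes. The AGO3 sites began 13898 and 16175 bases after the stop codon in exon 19, and the TNRC6B site 4083 bases after it in exon 21, again the last exons. All lie in the 3′ UTR of the transcript with the longest 3′ UTR of the gene (GENCODE 29).
AGO1 held 2 passenger heptamers, in the 3′ UTR part of exon 19, which were not followed by an A.
AGO1, first passenger site, chr1:35925534-35925540: tcttcatttttGTCATCTcagggtcatgg
AGO1, second passenger site, chr1:35927590-35927596: gctagaaatggGTCATCTcactcctgtca
A match is a run of letters and was not shown to be bound.

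The 10 genes did not move as a block. In siBYSL 4 rose (TNRC6C, TNRC6B, DROSHA and AGO1), 4 fell (DICER1, AGO2, AGO3 and TNRC6A) and 2 were not called (AGO4 and DGCR8), at an adjusted p under 0.05 in the edgeR quasi-likelihood test over all genes. Of all genes tested 18.5% rose and 18.4% fell, and of the 9932 genes with a mean of 10 CPM or more, as all 10 members had, 44.0% were called in either direction. With library totals in place of TMM factors 67.37% of all called genes were rises, against 50.04%, and the members gave 5 rises and 3 falls. In 9 of the 10 genes the libraries of the groups did not overlap, against 49.6% of all genes. The median absolute log2 fold change was 0.31 for the 10 genes, 0.21 for all genes tested and 0.17 for those of 10 CPM or more. The signed median was 0.03 for the members and 0.01 for all genes tested.

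**Figure D1:**
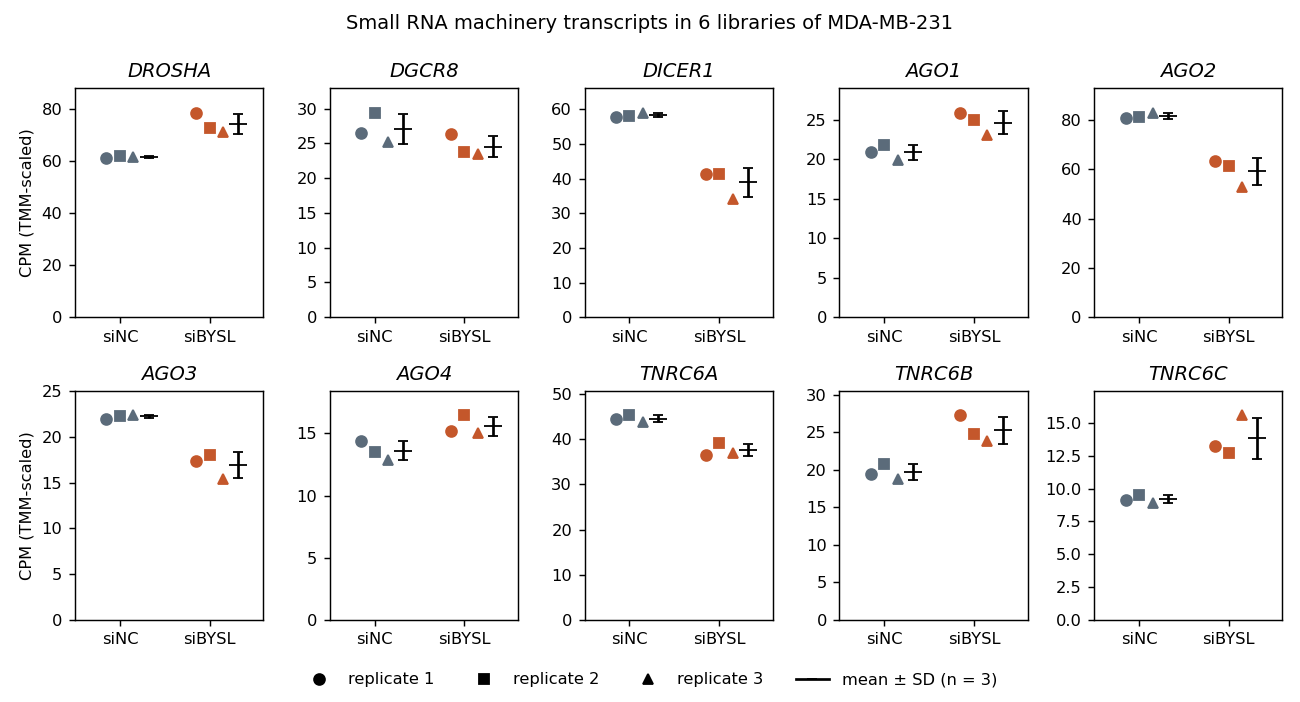
Level of each of the 10 genes in CPM (TMM-scaled, linear axis from 0) in the 3 siNC and 3 siBYSL libraries, with a symbol per replicate and the mean ± SD (n = 3) beside the points. DICER1, AGO2, AGO3 and TNRC6A lay lower and DROSHA, AGO1, TNRC6B and TNRC6C higher in each siBYSL library than in any siNC library, whereas the groups overlapped for DGCR8.

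The nuclear step split between its partners. DROSHA (ENSG00000113360.17, chr5:31400497-31532196, minus strand of GRCh38), the RNase III that cuts hairpins out of primary transcripts, measured 61.0, 62.0 and 61.4 CPM in the siNC libraries, replicates 1 to 3 in order, and 78.6, 72.7 and 71.2 CPM in the siBYSL libraries. The siNC libraries were nearly equal and every siBYSL library lay above them. The rise was 0.27 on the log2 scale (SE 0.055, edgeR adjusted p = 0.0032). DGCR8 (ENSG00000128191.16, chr22:20080232-20111877), which binds the hairpin and positions DROSHA, measured 26.5, 29.4 and 25.3 CPM in siNC and 26.3, 23.8 and 23.5 CPM in siBYSL. These groups overlapped, siBYSL 1 lying between the siNC libraries. The difference of -0.14 (SE 0.077) did not pass (adjusted p = 0.179).

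DGCR8 carries in its own mRNA hairpins that the DROSHA-DGCR8 complex is known to cut, which keeps its level tied to the activity of the complex. The microRNAs annotated there by RefSeq (GRCh38.p14) are shown because they mark those places; both lie in exon 2 of DGCR8-202, miR-3618 in the 5′ UTR and miR-1306 in coding sequence. Capitals mark the seed.
hsa-miR-3618, chr22:20085797-20085818: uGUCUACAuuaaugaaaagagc
hsa-miR-1306-5p, chr22:20086072-20086093: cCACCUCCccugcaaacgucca
hsa-miR-1306-3p, chr22:20086112-20086129: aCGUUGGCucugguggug
The poly(A) libraries did not measure mature microRNAs, so neither cleavage nor the product was read. The gene TRMT2A, on the opposite strand, shares 12 exonic bases with DGCR8 and was not called (-0.15, adjusted p = 0.152); another opposite-strand gene shares 526 exonic bases with it and lay between 0.14 and 0.45 CPM.

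DICER1 (ENSG00000100697.15, chr14:95086228-95158010, minus strand), which makes the final cut of microRNA precursors, showed the largest fall of the 10. It measured 57.8, 58.1 and 59.0 CPM in the siNC libraries and 41.3, 41.4 and 34.1 CPM in the siBYSL libraries. All siBYSL libraries were well below all siNC libraries, and siBYSL 3 was the lowest. Its mean went from 58.3 ± 0.65 to 38.9 ± 4.2 CPM (SD, n = 3 each), which is 66.8% of the siNC level. The log2 fold change was -0.58 (SE 0.076, adjusted p = 0.00019), or -0.50 without siBYSL 3. This is the transcript with the octamer of the guide strand shown above. The antisense gene DICER1-AS1, which shares 80 exonic bases with it, moved the other way, from 1.00, 1.00 and 1.18 CPM in siNC to 1.66, 1.88 and 2.08 CPM in siBYSL (log2 fold change 0.82, adjusted p = 0.0058). The kit marked strand, but the strand setting of the counting is not known here, so reads of this pair may not have been told apart.

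The Argonautes divided too. AGO3 (ENSG00000126070.20, chr1:35930718-36072500) measured 22.0, 22.3 and 22.4 CPM in siNC and 17.4, 18.1 and 15.3 CPM in siBYSL. The siNC values were nearly equal and the siBYSL values all lay below them. It fell by 0.39 (SE 0.076, adjusted p = 0.0023), and it is the Argonaute with guide heptamers. AGO1 (ENSG00000092847.13, chr1:35869808-35930528), an Argonaute known to silence mainly without slicing, measured 21.0, 21.8 and 19.9 CPM in siNC and 25.9, 25.0 and 23.1 CPM in siBYSL. The groups did not overlap, with siBYSL 3 the nearest to siNC. AGO1 rose by 0.24 (SE 0.071, adjusted p = 0.0215). The AGO1 call was lost without siNC 1 (adjusted p = 0.067), siNC 3 (0.109), siBYSL 1 (0.0612) or siBYSL 2 (0.077). AGO4 (ENSG00000134698.11, chr1:35808172-35857890) measured 14.4, 13.5 and 12.9 CPM in siNC and 15.2, 16.5 and 15.0 CPM in siBYSL. The groups did not overlap, yet the difference of 0.20 (SE 0.079) did not pass (adjusted p = 0.072). AGO4 passed with library totals (0.28, adjusted p = 0.02), with upper-quartile factors (0.24, 0.0328) and without siBYSL 3 (0.22, 0.026).

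AGO4, AGO1 and AGO3 stand in that order on the same strand of chromosome 1, within 264329 bases. AGO1 ends 189 bases before AGO3 starts, and 11917 bases separate AGO4 from AGO1. In this row the middle gene rose while its near neighbour AGO3 fell. The antisense gene that overlaps AGO1 and the one that overlaps AGO3 each stood under 0.2 CPM in every library.

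AGO2 is the most abundant Argonaute transcript in these cells and the one known for slicing, the activity by which an siRNA destroys its target. AGO2 (ENSG00000123908.12) lies at chr8:140520156-140635619 on the minus strand. It measured 80.9, 81.4 and 83.0 CPM in siNC and 63.4, 61.3 and 52.8 CPM in siBYSL. Each siBYSL library was lower than each siNC library, with siBYSL 3 lowest. The mean went from 81.8 ± 1.1 to 59.2 ± 5.6 CPM, or 72.4% of the siNC level (log2 fold change -0.47, SE 0.069, adjusted p = 0.00042), and the difference was -0.39 without siBYSL 3. A gene on the same strand that shares 47 exonic bases with AGO2 lay between 0.22 and 0.49 CPM. The longest 3′ UTR of AGO2 held 0 guide heptamers and 1 passenger heptamer.

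**Figure D2:**
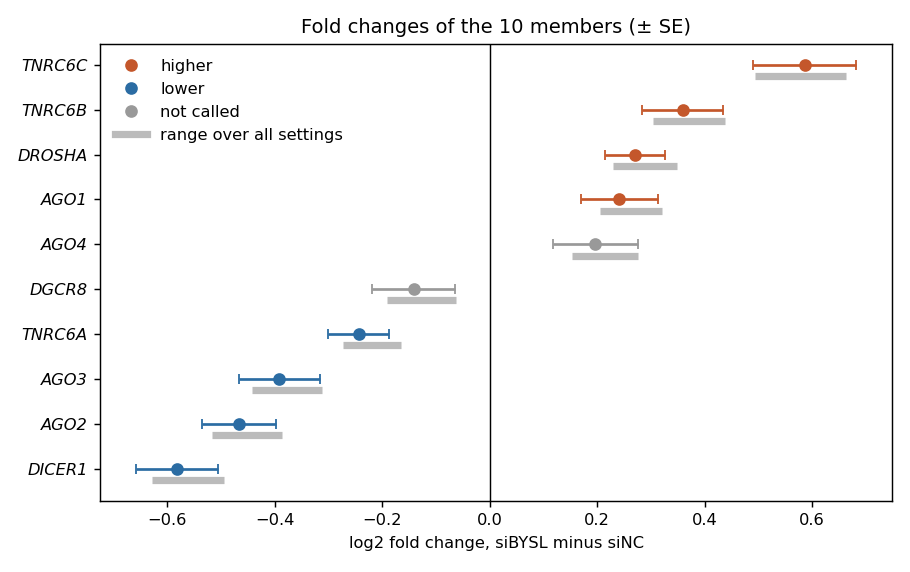
Log2 fold change of siBYSL minus siNC for the 10 genes (points, ± SE from the edgeR fit), coloured by call, with a grey bar for the range over all settings of the fit. DICER1 is lowest at -0.58 and TNRC6C highest at 0.59, and the grey bar stays on 1 side of 0 for all 10 genes.

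The TNRC6 adaptors moved in opposite directions. TNRC6A (ENSG00000090905.19, chr16:24610209-24827632), the most abundant of them here, measured 44.5, 45.3 and 43.8 CPM in siNC and 36.6, 39.2 and 37.1 CPM in siBYSL. The siBYSL libraries all lay lower. It fell by 0.24 (SE 0.057, adjusted p = 0.0065). With library totals the difference was -0.17 and just missed the threshold (adjusted p = 0.0507). TNRC6B (ENSG00000100354.21, chr22:40044817-40335808) measured 19.5, 20.8 and 18.8 CPM in siNC and 27.2, 24.8 and 23.7 CPM in siBYSL. All siBYSL libraries were higher. TNRC6B rose by 0.36 (SE 0.075, adjusted p = 0.0036), and it is the TNRC6 gene that held a guide heptamer. TNRC6C (ENSG00000078687.17, chr17:77959240-78108835) measured 9.16, 9.53 and 8.93 CPM in siNC and 13.2, 12.7 and 15.6 CPM in siBYSL. It had the lowest mean CPM of the 10 in both groups and the largest rise, with siBYSL 3 the highest library. It rose by 0.59 (SE 0.096, adjusted p = 0.00083), or 0.49 without siBYSL 3, to 150.3% of its siNC level.

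The share of each gene in its family's transcripts was also compared, as a description of the make-up of both families. Levels were set side by side between genes as CPM per kb of annotated exon (GENCODE 29). AGO2 made up 53.0%, 53.4% and 55.2% of the AGO1 to AGO4 transcripts in the siNC libraries and 45.6%, 44.1% and 42.8% in the siBYSL libraries. The groups did not overlap, and the difference was -9.71 percentage points. AGO4 went from 19.5% ± 0.97 to 25.4% ± 1.4, AGO1 from 15.7% ± 0.61 to 21.0% ± 0.49 and AGO3 from 11.0% ± 0.17 to 9.46% ± 0.22 (SD, n = 3 each). TNRC6A made up 65.7%, 64.9% and 66.0% of the TNRC6 transcripts in siNC and 52.6%, 56.0% and 52.6% in siBYSL, a difference of -11.8 points. TNRC6B went from 18.7% ± 0.48 to 23.3% ± 1.8 and TNRC6C from 15.7% ± 0.11 to 23.0% ± 2.4. For AGO2 and each TNRC6 share an exact two-sided permutation test over samples gave p = 0.1, the smallest that 3 against 3 libraries allow (adjusted over the 4 shares, 0.1), so this permutation test cannot reach 0.05. The AGO1, AGO3 and AGO4 shares are given with no test.

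**Figure D3:**
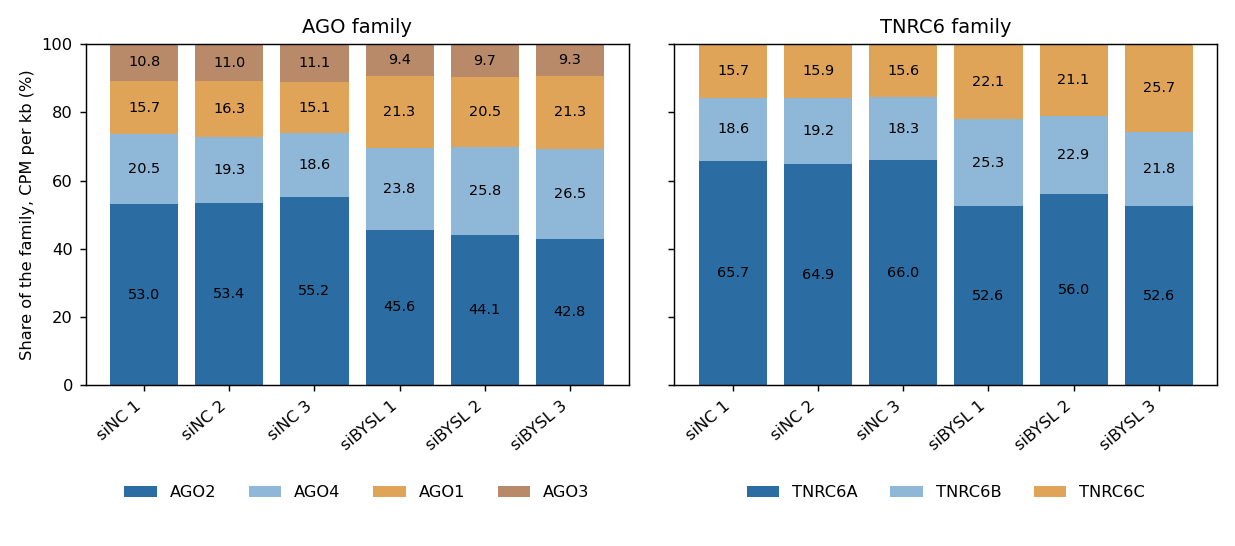
Share of each gene in its family's transcripts (CPM per kb of annotated exon, in percent of the family) for each library, AGO family on the left and TNRC6 family on the right. AGO2 lies between 53.0% and 55.2% in siNC and between 42.8% and 45.6% in siBYSL, and TNRC6A between 64.9% and 66.0% and between 52.6% and 56.0%.

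The summed level differed between the families. The 4 AGO genes together summed to 138.5 ± 0.49 CPM in siNC against 116.3 ± 8.7 CPM in siBYSL, 84.0% of the siNC level, with the siBYSL libraries at 121.9, 120.8 and 106.3 CPM all below siNC. The 3 TNRC6 genes together summed to 73.5 ± 2.1 CPM in siNC against 76.7 ± 0.36 CPM in siBYSL, 104.4% of the siNC level. Here the rises of TNRC6B and TNRC6C together exceeded the fall of TNRC6A. The siBYSL libraries at 77.1, 76.6 and 76.4 CPM all lay above siNC at 73.1, 75.7 and 71.6 CPM. Summed as CPM per kb, the groups overlapped (siNC 5.24, 5.41 and 5.13, siBYSL 5.39, 5.41 and 5.46). No test was made of these sums.

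By level per kb, DROSHA was the highest of the 10 in siNC (7.90 ± 0.069 CPM per kb), followed by AGO2 (5.16 ± 0.071), DICER1 (4.74 ± 0.053), DGCR8 (3.70 ± 0.29) and TNRC6A (3.45 ± 0.059). The siNC ranges of DGCR8 (3.45 to 4.02) and TNRC6A (3.39 to 3.51) overlapped. They were not compared within libraries. AGO4 (1.87 ± 0.10), AGO1 (1.50 ± 0.068), AGO3 (1.05 ± 0.0095), TNRC6B (0.98 ± 0.051) and TNRC6C (0.83 ± 0.027) followed, with no overlap between neighbours. In siBYSL DROSHA stood at 9.53 ± 0.50 CPM per kb, and AGO2 (3.74 ± 0.36), DGCR8 (3.35 ± 0.21), DICER1 (3.17 ± 0.34) and TNRC6A (2.91 ± 0.10) came next, each overlapping its neighbour in that order. On this length DICER1 lay above DGCR8 in every siNC library and overlapped it in siBYSL. AGO3 went from above both TNRC6B and TNRC6C to below them (0.80 ± 0.067 against 1.26 ± 0.090 and 1.25 ± 0.14 CPM per kb). The order of close neighbours depends on the length used: by the longest transcript, DGCR8 stood second in siNC (5.76 ± 0.46), with DICER1 (5.64 ± 0.063) overlapping it and AGO2 (5.61 ± 0.077) overlapping DICER1. In siBYSL DGCR8 (5.23 ± 0.33) then lay above DICER1 (3.77 ± 0.41) without overlap. On annotated exon length DGCR8 also had the higher mean in siBYSL, but there the libraries of DGCR8 and DICER1 overlapped.

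Of the 10 members 6 had a 3′ UTR of 4000 bases or more, a property that the choice by symbol did not use. The median of the 10 was 4277.5 bases, against 1356 for all tested genes with a 3′ UTR. Lengths ran from 935 bases in DROSHA, below that of all genes, and 1767 in DGCR8 to 16755 in AGO3. Of the genes with a 3′ UTR of 4000 bases or more, 34.0% held a guide heptamer and 37.4% a passenger heptamer, and of the 6 members of that length 3 held a guide heptamer. Of the 1550 tested genes with a guide heptamer 33.7% fell and 15.2% rose, against 19.2% and 20.5% of the 11522 without. Of the 1584 with a passenger heptamer 24.6% fell and 20.4% rose. No test was made of these shares, and the genes with and without a heptamer were not matched for 3′ UTR length or level. Among the members with the heptamer DICER1 and AGO3 fell and TNRC6B rose, while AGO2 and TNRC6A fell without one. Of the members with a passenger heptamer AGO1 rose and AGO2 fell.

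Genes around the core were read from lists of the steps that precede and follow it. Of 16 processing cofactors, which assist DROSHA, carry precursors out of the nucleus or partner DICER1, 7 fell and 0 rose in the edgeR test (0 rose at an unadjusted p under 0.05, and 0 by DESeq2 or limma-voom), with 1 rise without siBYSL 3. Their median log2 fold change was -0.12. HNRNPA1, an RNA-binding protein known to bind some microRNA hairpins, fell from 824.1 ± 12.8 to 482.2 ± 11.1 CPM (SD, n = 3 each), by 0.77 (SE 0.050). RAN, the GTPase that drives export by XPO5, fell by 0.38 (SE 0.054). HNRNPA1 and RAN both held the octamer of the guide strand, while DDX17, with 1 guide heptamer, was not called (-0.14, adjusted p = 0.0754). The cap-binding protein NCBP1 fell by 0.34 and the splicing factor SRSF3, which recognises a motif beside hairpins, by 0.26. The DICER1 partner TARBP2 and the exporter XPO5 itself fell by 0.35 and 0.17, while PRKRA and ADAR were not called.

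Of 19 chaperones that load Argonautes and proteins that bind or modify them, 7 fell and 3 rose, with a median of -0.13. The HSP90 co-chaperones FKBP4 and STIP1 fell, FKBP4 from 182.9 ± 2.1 to 130.9 ± 4.6 CPM (-0.48, SE 0.049) and STIP1 from 382.3 ± 7.6 to 277.4 ± 5.1 CPM (-0.46, SE 0.048). FKBP5, another HSP90 co-chaperone, rose from 90.0 ± 2.0 to 125.0 ± 9.0 CPM (0.47, SE 0.060). FXR2, an RNA-binding protein related to FMRP, fell by 0.35 (SE 0.055). FXR1, with 4 guide heptamers, fell by 0.19 (SE 0.059), while IPO8, with 2, and PPP6C, with 1, were not called. HSP90AB1 fell by 0.32, whereas HSP90AA1 stood at 0.00 (adjusted p = 0.97). ANKRD52, part of the phosphatase that acts on Argonautes, rose by 0.32.

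The 16 genes listed here as deadenylase genes include the poly(A)-binding proteins PABPC1 and PABPC4 and the adaptors TOB1 and TOB2. Of the 16, 6 fell and 1 rose, with a median of -0.12. No PABPC or TOB gene was called. The count of rises was 4 without siBYSL 3 and 2 with library totals or upper-quartile factors. Over all genes rises went from 3032 to 3929 without siBYSL 3, 4106 with library totals and 3630 with upper-quartile factors. The catalytic subunits CNOT6 and CNOT8 of the CCR4-NOT complex fell, CNOT6 from 58.2 ± 2.1 to 39.3 ± 2.5 CPM (-0.57, SE 0.063) and CNOT8 from 80.5 ± 0.39 to 58.4 ± 3.9 CPM (-0.46, SE 0.059). CNOT9, which binds TNRC6 proteins, fell by 0.44 (SE 0.057), and the scaffold CNOT1, with 1 guide octamer, by 0.34 (SE 0.057). Of the 4 listed genes with a guide heptamer 3 fell: CNOT1, CNOT11 with 1 (-0.29) and CNOT6L with 2, both octamers (-0.32). CNOT7, with 2, was the other and was not called (-0.17, adjusted p = 0.0646). CNOT6, CNOT8 and CNOT9 held none. PAN2, catalytic subunit of the other deadenylase, was the gene that rose (0.45, SE 0.094), while its partner PAN3 was not called (0.09, adjusted p = 0.355).

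Of 20 genes of decapping and decay 5 fell and 1 rose, with a median of -0.04. The count of falls was 9 without siBYSL 3 and 3 without siNC 1, siNC 2, siNC 3 or siBYSL 2, or with library totals or upper-quartile factors. Over all genes the falls changed too, from 3027 to 4075 without siBYSL 3. They numbered 2105 to 2297 without siNC 1, siNC 2, siNC 3 or siBYSL 2. With library totals they were 1989 and with upper-quartile factors 2418. LSM14B, a translational repressor, fell from 72.0 ± 1.2 to 48.4 ± 3.2 CPM (-0.57, SE 0.060), the decapping enzyme DCP2 fell by 0.25 (SE 0.057) and its enhancer EDC3 by 0.36 (SE 0.081). LSM14B, DCP2 and EDC3 each held a guide heptamer, as did LSM3, which was not called (-0.0001, adjusted p = 0.999). DCP1A and LSM6 fell without one. The single rise, of DCP1B (0.38, SE 0.13, adjusted p = 0.0352), was lost without siNC 2, siNC 3 or siBYSL 2 and with DESeq2, and there were 3 rises without siBYSL 3. The helicase DDX6 and the exonuclease XRN1 were not called (0.04 and 0.17, adjusted p = 0.636 and 0.15).

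Of 16 genes of microRNA turnover 13 were tested, of which 3 fell and 1 rose (5 and 3 without siBYSL 3), with a median of -0.08. The RNA exonuclease USB1 fell from 96.5 ± 1.6 to 71.9 ± 2.2 CPM (-0.43, SE 0.050). ZSWIM8, the ubiquitin ligase component that directs decay of Argonautes on extensively paired targets, fell by 0.32 (SE 0.054) and ELOC, an elongin subunit of such ligases, by 0.27 (SE 0.062). The ribonuclease PARN rose by 0.22 (SE 0.075, adjusted p = 0.0373), a call lost with DESeq2 and without siNC 1, siNC 2, siNC 3, siBYSL 1 or siBYSL 2.

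Across these 5 lists 28 of 84 tested genes fell and 6 rose, or 33.3% and 7.14%, against 18.4% and 18.5% of all genes. The other 50 were not called. Of tested genes with a mean of 10 CPM or more, as all of the 84 but DCP1B had, 44.0% were called in either direction. A guide heptamer was present in 15 of the 84, of which 9 fell, 0 rose (0 at an unadjusted p under 0.05, and 0 with DESeq2 or limma-voom) and 6 were not called. Those that fell were HNRNPA1, RAN, FXR1, CNOT1, CNOT11, CNOT6L, LSM14B, DCP2 and EDC3. Those not called were DDX17, IPO8, PPP6C, CNOT7, LSM3 and ARIH1. FKBP4, STIP1, NCBP1, SRSF3, CNOT6, CNOT8, CNOT9 and USB1 were among the genes that fell without one. Of all tested genes with the heptamer 33.7% fell and 15.2% rose, and no test set the 15 genes against them. This was counted after the values were seen. The core had as many rises as falls where the surrounding lists held mostly falls; that difference between them was not tested.

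**Figure D4:**
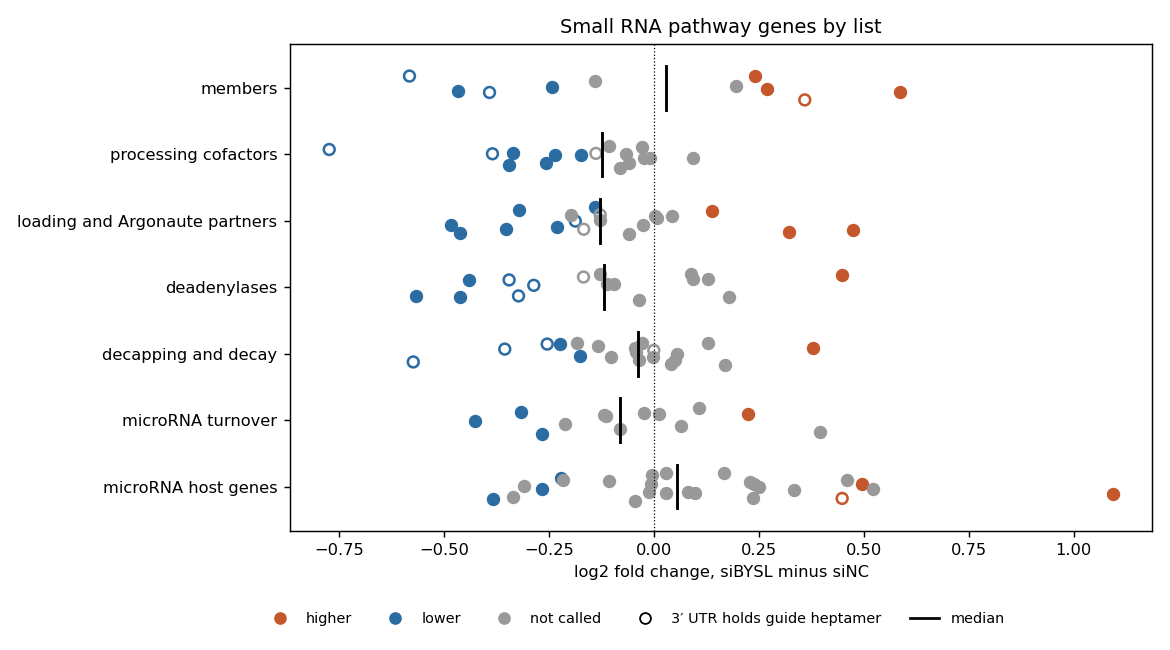
Log2 fold change of siBYSL minus siNC for each tested gene of the core (members) and of the surrounding lists, spread vertically to separate points, coloured by call; open circles mark genes whose longest 3′ UTR holds the guide heptamer, and black bars are medians. The median lies at 0.03 for the members, between -0.13 and -0.04 for the 5 lists of other pathway genes, and at 0.05 for the microRNA host genes.

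The substrates of the pathway can be seen in part through the long host transcripts of microRNAs, of which 51 carried a MIR...HG symbol and 26 were tested. Of these 3 rose and 3 fell, or 11.5% each, against 18.5% and 18.4% of all genes tested. The median was 0.05. The falls numbered 1 with library totals and without siNC 2, siNC 3 or siBYSL 2. MIR22HG fell from 32.5 ± 1.7 to 24.9 ± 0.53 CPM (-0.38, SE 0.064, adjusted p = 0.00087). MIR34AHG, host of a microRNA known as a p53 target, rose from 1.25 ± 0.27 to 2.67 ± 0.32 CPM (1.09, SE 0.19, adjusted p = 0.0014), a low level in both groups. MIR222HG fell from 38.0 ± 1.1 to 32.6 ± 0.25 CPM (-0.22, SE 0.057, adjusted p = 0.0111), a call lost with library totals and without siNC 2, siNC 3 or siBYSL 2. MIR29B2CHG rose from 4.02 ± 0.16 to 5.67 ± 0.85 CPM (0.50, SE 0.13, adjusted p = 0.0125), a call lost without siNC 3 (0.0565). The others called were MIR1915HG, which rose by 0.45, and MIR503HG, which fell by 0.27.

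The microRNAs that RefSeq (GRCh38.p14) places inside the 4 host genes given with full values are shown by their main arms, to set the seeds that these transcripts carry beside the guide seed of the siRNA; their mature levels were not measured. Capitals mark bases 2 to 8, and all lie on the minus strand.
hsa-miR-22-3p, from MIR22HG, chr17:1713914-1713935: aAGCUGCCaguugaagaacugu
hsa-miR-34a-5p, from MIR34AHG, chr1:9151735-9151756: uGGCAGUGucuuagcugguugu
hsa-miR-221-3p, from MIR222HG, chrX:45746180-45746202: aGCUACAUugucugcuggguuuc
hsa-miR-222-3p, from MIR222HG, chrX:45747036-45747056: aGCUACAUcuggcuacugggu
hsa-miR-29b-3p, from MIR29B2CHG, chr1:207802450-207802472: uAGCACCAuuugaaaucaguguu
hsa-miR-29c-3p, from MIR29B2CHG, chr1:207801865-207801886: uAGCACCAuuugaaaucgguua
miR-221 and miR-222 share the seed GCUACAU, and miR-29b and miR-29c share AGCACCA. None of these 6 has the guide seed AUUCAGC.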

How the data were processed

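Strand-specific poly(A) RNA-seq libraries (150 nt paired-end reads, per the labels' protocols) of 3 siNC and 3 siBYSL cultures were used. The authors deposited raw counts per gene. Per the submitters' processing notes, which give neither versions nor roles, HISAT2, DESeq2 and GRCh38.p13 were used. The counting tool, annotation release and strand setting were not given in the sources used here.

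Counts were filtered with filterByExpr, scaled with TMM factors (0.9645 to 1.04) over the filtered totals, and tested with the edgeR 4.0.16 quasi-likelihood F test (robust, group only; limma 3.58.1, DESeq2 1.42.0, R 4.3.3), with Benjamini-Hochberg adjustment over all 16412 genes. Adjusted p-values in the report come from this test. SE was taken as the size of the log2 fold change over the root of F. The common biological coefficient of variation was 0.0649; p-values describe the spread among these cultures. Permutation tests used SciPy 1.17.1. Positions, lengths and 3′ UTRs came from GENCODE 29, whose release may differ from the authors'; heptamers were searched on the transcript strand only. The test was tried on simulated data.

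The members and gene lists were chosen with earlier results of these data known. Named genes were all 10 members, BYSL, the up to 4 called genes of smallest p in each list, and the 3 genes nearest in pattern to the member of largest change; other names were chosen after their values were seen. Alternatives covered scaling (library totals, DESeq2 size factors, upper-quartile factors), filtering (none, or 1 CPM in 3 libraries), the test (limma-voom, DESeq2 Wald), a replicate block, each library left out, other lengths for the shares and all annotated 3′ UTRs.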

Additional observations from a re-analysis of the deposited data

How the results depend on the processing

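Over 14 alternatives (fits, filters, scalings and left-out libraries) each of the 10 members kept its direction, and the calls of DICER1, AGO2, AGO3, DROSHA, TNRC6B and TNRC6C and the lack of one for DGCR8 held in all 14. Members higher numbered 3 to 5 and members lower 3 or 4. With library totals 2 deadenylase genes were higher, 3 decapping genes lower and 1 microRNA host gene lower; with upper-quartile factors the first and second of these were also 2 and 3. With DESeq2's Wald test 0 decapping genes and 0 turnover genes were higher. With each library left out in turn, 0 to 1 processing cofactors and 1 to 4 of the listed deadenylase genes were higher. Decapping genes ran from 0 to 3 higher and 3 to 9 lower. Turnover genes ran from 0 to 3 higher and 3 to 5 lower, and host genes from 1 to 3 lower. Calls over all genes shifted as well: 3929 rose and 4075 fell without siBYSL 3, against 3032 and 3027 with all 6 libraries. With any other library left out, 2121 to 2799 rose and 2105 to 2847 fell. The cause of these changes was not tested. The 4 shares kept their sign under every length and left-out library (AGO2 -10.4 to -8.23 points, TNRC6A -13.0 to -10.9). The count of fallen genes with a guide heptamer in the 5 lists, an alternative chosen after seeing the data, ran from 8 to 12 against 9.

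No pairing by replicate number was seen. Deviations of same-numbered libraries correlated at -0.129, 0.060 and 0.011 over genes, and those of other pairs at -0.168 to 0.151. With 3 libraries per group this cannot show that the cultures were not paired. With a replicate block 4 members were higher and 4 lower, as without it, and 3 decapping genes were lower in place of 5. Some genes of low count had wide errors, such as MIR34AHG (SE 0.19) and DCP1B (SE 0.13), against 0.096 for TNRC6C. TUT4, at a higher level, had a wide one too (SE 0.18).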

Other observations

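The PIWI pathway is the germline relative of Argonaute silencing. Of 9 of its genes 5 had a row and 3 passed the filter, and 0 of these was called in either direction (edgeR; 0 at an unadjusted p under 0.05). MAEL averaged 2.96 ± 0.31 CPM in siNC against 2.44 ± 0.51 CPM in siBYSL (SD, n = 3 each), and the genes that were not tested reached at most 0.11 CPM. The let-7 regulators LIN28A, LIN28B and TRIM71 were likewise below the filter, at no more than 0.069 CPM in any library. The uridylyltransferase TUT4, which acts with LIN28 proteins, was uneven among siBYSL libraries: it averaged 18.1 ± 1.7 CPM in siNC against 23.8 ± 7.0 CPM in siBYSL, from 16.3 to 30.1 CPM, and was not called (0.40, SE 0.18, adjusted p = 0.101).

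The genes most like TNRC6C, the called member with the largest absolute change in the test of the report (0.59, against -0.58 for DICER1, a lead that turns in most of the alternatives, among them DESeq2 size factors, limma-voom, no filter and the fit without siBYSL 3), were ZSWIM9, IMPA2 and PCNX3, by the root-mean-square difference in log2 CPM from the siNC mean over 6 libraries among 9931 genes. Their distances were 0.032, 0.055 and 0.055. Their log2 fold changes were 0.57 (SE 0.090) for ZSWIM9, 0.58 (SE 0.092) for IMPA2, an inositol monophosphatase, and 0.62 (SE 0.080) for PCNX3.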
